A study of Mus musculus with 24 samples.

Results

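The mRNA of whole mouse lenses at embryonic day 18 (E18) was compared with that at embryonic day 15 (E15). The 4 libraries concerned, pools A and B of E18 and pools A and B of E15, were chosen by stage and assay from the 24 libraries of a series that also covered 4 postnatal stages and small RNA. All groups were C57BL/6 mice, and the labels name no treatment or genetic change. Each library came from a pool of lenses of 8 to 9 animals, dissected with forceps, and the labels do not give the sexes or litters within a pool. Levels are in RPKM (reads scaled by transcript length and library depth), a unit read from the values of the deposited tables, which hold 30705 genes, of which 14405 reached 1 RPKM in at least 2 of the 12 mRNA libraries and were tested. From the step between low values, the depth was estimated at 32.1 M and 43.5 M reads in the E18 pools, against 25.7 M and 24.0 M reads in the E15 pools. At 1 RPKM, a transcript of 2 kb thus rests on between 47.9 and 87.1 reads, and values well below 1 RPKM carry large counting error.

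The lens is a closed ball of cells inside a collagenous capsule. A single layer of epithelium covers its front, and cells at the equator leave the cell cycle and elongate into fibers packed with crystallins, the soluble proteins that give the lens its refractive power. Before birth the lens is nourished by a net of capillaries around the capsule, the tunica vasculosa lentis, and it lies against the pigmented and non-pigmented layers at the rim of the optic cup, from which the iris and ciliary body form.

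At E18 the late crystallins Crybb2 and Crygs, the fiber genes Lctl, Lgsn and Birc7, and all 8 tested pigment cell genes were higher than at E15. Genes of secreted eye proteins such as Ptgds, Htra1, Optc and Col9a3 were among the genes with the greatest increases. The embryonic globins Hbb-y and Hba-x, the surface keratins Krt5 and Krt15, the epithelial transcription factors Foxe3 and Pitx3, and the growth-related imprinted genes Igf2 and H19 were lower at E18.

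The E15 pools differed far more from each other than the E18 pools did, and this touches every result. The median absolute difference between pools A and B was 0.35 on the log2 scale at E15 and 0.11 at E18, and 7.53% of genes differed by more than 1 between the E15 pools, against 0.514% between the E18 pools. Rax, a transcription factor that defines retinal progenitor cells, had 56.2 and 61.5 RPKM in E18 pools A and B, against 75.6 and 20.2 RPKM in E15 pools A and B. The summed level of 10 retinal progenitor genes was 686 and 666 RPKM at E18, against 972 and 263 RPKM at E15. E15 pool A was thus the richer in retinal transcripts, and both E18 pools lay between the E15 pools. E15 pool A was above E15 pool B for 71.8% of the genes tested, but for none of the 16 crystallins. In 3959 genes (27.5%) both E18 pools lay between the E15 pools, and in 3309 of them (23%) E15 pool A was the higher. In bulk RNA, fewer cells of a type and less RNA per cell cannot be told apart, nor can retinal tissue left on the lens be told apart from retinal genes made by lens cells. The defining lens genes were abundant in every pool: Cryaa, the main alpha crystallin, had 27655 and 28211 RPKM at E18, against 22747 and 32377 RPKM at E15.

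**Figure D1:**
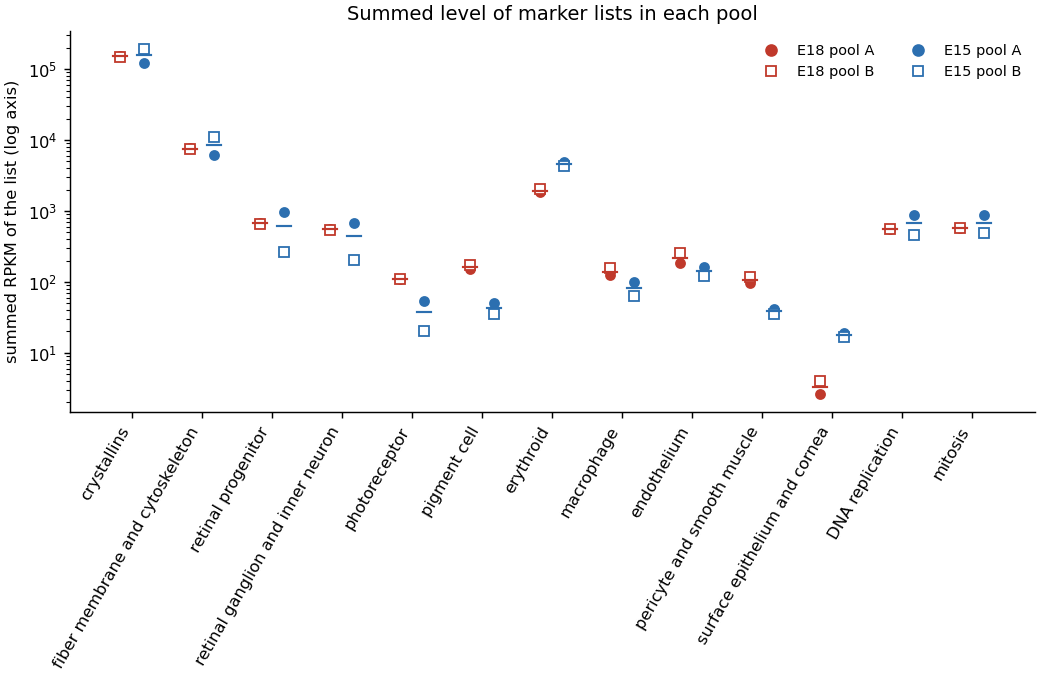
Summed RPKM (log axis) of the members of 13 gene lists in each pool, E18 in red and E15 in blue, with a line at the mean of the 2 pools; an E18 pool A circle can lie under the pool B square. The E15 pools are far apart for retinal lists (972 and 263 RPKM for retinal progenitors) and the E18 pools close together, while pigment cell genes (154 and 175 RPKM at E18, against 51.1 and 35.0 at E15) and erythroid genes are separated by stage.

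All 8 tested pigment cell genes were called higher and 7 of 8 erythroid genes lower. The promoters of the 3 melanin-synthesis enzymes and of the 2 globins with the greatest falls are therefore shown as RefSeq gives them (GRCm38.p6). Each window runs from 250 bases before to 50 bases after a start of the gene, written 5′ to 3′ on the gene's strand. In the 3 pigment genes, capitals mark CATGTG or its reverse complement, the core of the M-box bound by the pigment cell factor Mitf.
Tyrp1 (chr4:80833963-80834262, plus strand): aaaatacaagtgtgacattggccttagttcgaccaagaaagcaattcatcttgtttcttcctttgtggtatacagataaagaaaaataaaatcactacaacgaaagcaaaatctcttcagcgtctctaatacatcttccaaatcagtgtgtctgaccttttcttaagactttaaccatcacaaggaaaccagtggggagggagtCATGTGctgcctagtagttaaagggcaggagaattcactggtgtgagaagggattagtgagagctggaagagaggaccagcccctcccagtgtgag
Dct (chr14:118052197-118052496, minus strand): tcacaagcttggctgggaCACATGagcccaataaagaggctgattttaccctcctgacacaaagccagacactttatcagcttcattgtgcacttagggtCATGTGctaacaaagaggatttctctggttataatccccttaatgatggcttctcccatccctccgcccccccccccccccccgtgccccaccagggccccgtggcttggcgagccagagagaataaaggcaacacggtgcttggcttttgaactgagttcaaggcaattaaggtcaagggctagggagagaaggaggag
Tyr (chr7:87493463-87493762, minus strand): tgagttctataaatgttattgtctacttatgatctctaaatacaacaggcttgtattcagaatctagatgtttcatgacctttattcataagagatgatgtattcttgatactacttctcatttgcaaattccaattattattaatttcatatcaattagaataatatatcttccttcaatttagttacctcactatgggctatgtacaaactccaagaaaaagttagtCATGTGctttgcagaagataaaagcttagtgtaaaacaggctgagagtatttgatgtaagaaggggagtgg
CATGTG was present in all 3, starting at bases -46 (Tyrp1), -232 and -150 (Dct) and -21 (Tyr) from the start used for the window, and in 14.1% of the 27025 promoters in the table. For Tyrp1 that start lies inside the gene, whose listed position begins at base 80834123, so its CATGTG lies downstream of that position. In the 2 embryonic globin genes, capitals mark CTCCACCC (a CACCC box), GATAA (the core of a GATA site) and CCAAT, or their reverse complements.
Hbb-y (chr7:103853158-103853457, minus strand): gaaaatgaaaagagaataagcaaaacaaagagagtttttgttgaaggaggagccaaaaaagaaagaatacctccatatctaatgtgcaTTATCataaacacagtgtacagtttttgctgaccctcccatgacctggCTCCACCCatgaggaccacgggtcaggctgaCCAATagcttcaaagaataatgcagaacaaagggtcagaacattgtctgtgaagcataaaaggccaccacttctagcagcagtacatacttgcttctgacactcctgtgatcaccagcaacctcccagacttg
Hba-x (chr11:32276350-32276649, plus strand): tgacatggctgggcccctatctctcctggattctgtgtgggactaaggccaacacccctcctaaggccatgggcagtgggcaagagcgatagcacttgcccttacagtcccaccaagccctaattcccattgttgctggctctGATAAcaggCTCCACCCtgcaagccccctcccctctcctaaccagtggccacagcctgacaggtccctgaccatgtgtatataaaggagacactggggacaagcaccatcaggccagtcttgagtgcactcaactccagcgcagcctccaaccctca
The CACCC box starts at base -114 in Hbb-y and at base -98 in Hba-x, and 4.85% of all promoters held it. GATAA stands at base -162 in Hbb-y and -107 in Hba-x (25.8% of all promoters). CCAAT was found at base -83 in Hbb-y but not in Hba-x (37.9% of all promoters). The M-box, CACCC box and GATA letters were chosen after the lists and sequences had been seen, and CATGTG also occurs in the Hba-x window, at base -36. Of the other motifs searched on both strands, the Maf-type motif TGCTGAC (4.58% of all promoters) occurred in the Hbb-y window, and TTTGAA (18.1%), the core of an element of cell cycle promoters, in those of Dct and Hbb-y. The E2F-like motif TTCCCGC (4.66%) and the sterol element core CACCCCAC (2.77%) occurred in none of the 5. CCAAT and GATAA were also present in the 3 pigment promoters. These letters are descriptions of the windows, and no binding was measured.

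Differences were tested with limma on log2(RPKM + 1) over the 12 mRNA libraries, and a gene was called at a Benjamini-Hochberg adjusted p below 0.05. At E18, 789 genes were higher (5.48% of those tested) and 529 were lower (3.67%) than at E15, 1318 in all (9.15%), with a median log2 fold change of 0.050 over all genes. This model gives every stage the same spread, which understates that of the E15 pools. When each stage was given its own weight, 122 genes were called higher (0.847%) and 38 lower (0.264%). Of these, 119 higher (0.826%) and 38 lower (0.264%) were also called without E15 pool A, without E15 pool B, after median-ratio rescaling of the libraries and with Rax as a covariate. Genes in this set, called in the main test and in the same direction under all 5 alternatives, are named robust calls below, a set defined after the data were seen. The 5 do not include the fit to the 4 libraries alone or the fits without an E18 pool, and some robust calls were lost in those fits. Both E18 pools lay above both E15 pools in 3686 genes (25.6%) and below both in 3154 (21.9%). Because RPKM is relative, crystallins weigh on every other value. When libraries were rescaled without the crystallins, the median of all genes moved to 0.16. Then 914 genes were called higher (79.8% of the calls) and 231 lower (20.2%), against 59.9% higher and 40.1% lower in the main test. This rescaling also evened out unequal summed RPKM (442719 and 446771 at E18, against 438777 and 507852 at E15). It also raised all values relative to the 1 added before the logarithm. What part of the shift comes from the crystallins was not tested.

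**Figure D2:**
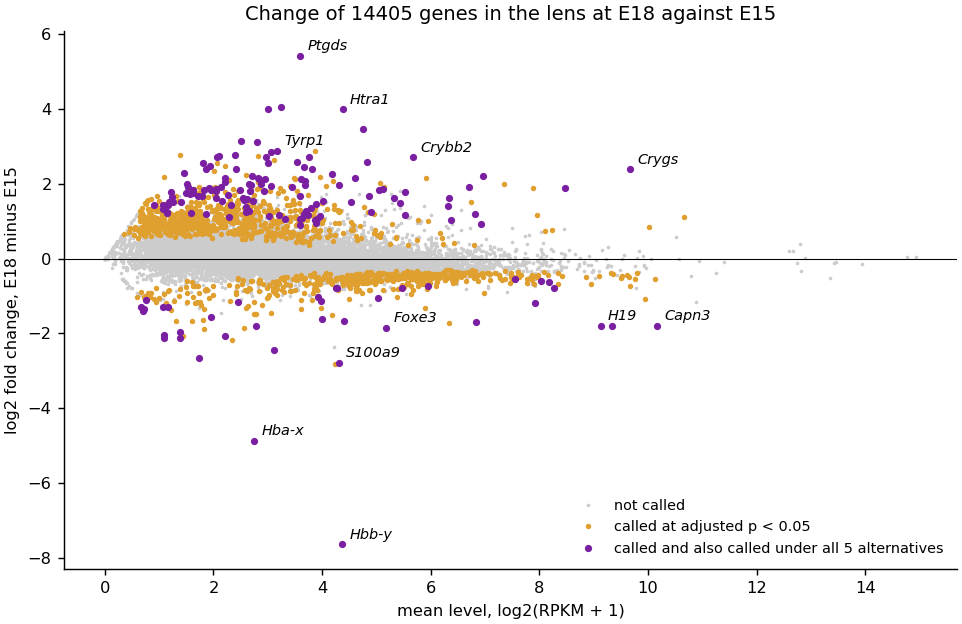
Log2 fold change (E18 minus E15) against the mean level, log2(RPKM + 1), of the 14405 genes tested; orange points were called, and purple points are the 119 higher and 38 lower robust calls. Ptgds, Htra1, Crybb2 and Crygs stand at the top, and Hbb-y and Hba-x at the bottom.

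Crystallins changed only in part. Of 16 tested crystallin genes, 3 rose, none fell and 13 were not called, and their median log2 fold change was 0.03. Crybb2 (chr5:113058258-113070117, GRCm38), a beta crystallin of late fibers, had 134 and 125 RPKM at E18, against 18.6 and 19.3 RPKM at E15. Its log2 fold change was 2.71 ± 0.10 (SE, adjusted p = 1.73e-07), with little difference between pools at either stage. Crygs (chr16:22805203-22811410), the gamma crystallin of secondary fibers, had 1764 and 1869 RPKM at E18, against 248 and 480 RPKM at E15 (2.39 ± 0.24, adjusted p = 4.76e-04). Both are robust calls. Cryab, the small heat shock protein alpha B crystallin, had 2390 and 2308 RPKM at E18, against 866 and 1384 RPKM at E15 (1.10 ± 0.19, adjusted p = 0.00783). Cryba1 had 30294 and 32132 RPKM at E18, against 23996 and 38763 RPKM at E15, so that the E18 pools lay between those of E15. The same order held for 10 of the 16 crystallins. The median log2 fold change of all 16 was -0.29 without E15 pool A and 0.30 without E15 pool B, against 0.18 and -0.07 over all genes. Reads of the near-identical gamma crystallins Cryga to Crygf can be placed on the wrong copy. All 16 crystallins held 34.6% and 33.7% of summed RPKM at E18, against 27.5% and 38.5% at E15. The means, 34.1% ± 0.644 at E18 and 33.0% ± 7.82 at E15 (SD, n = 2 each), differed by less than the spread between the E15 pools (exact permutation test, two-sided p = 1.0, where 0.333 is the smallest p that 2 pools against 2 allow).

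Some fiber genes were higher. Of 17 fiber membrane and cytoskeleton genes, 4 rose and 2 fell, with a median of -0.06. Lctl, a klotho-family membrane protein of fiber cells, had 51.5 and 47.7 RPKM at E18, against 7.77 and 13.6 RPKM at E15 (2.16 ± 0.19, adjusted p = 2.18e-04). Lgsn (lengsin), a fiber-specific protein related to glutamine synthetase, had 4.12 and 5.33 RPKM at E18, against 0.364 and 0.501 RPKM at E15 (1.99 ± 0.22). Birc7, an inhibitor of apoptosis protein, had 63.6 and 70.5 RPKM at E18, against 14.5 and 30.3 RPKM at E15 (1.62 ± 0.25). These 3 are robust calls. Dnase2b, the nuclease that degrades fiber cell DNA when the nuclei are lost, had 21.5 and 19.7 RPKM at E18, against 5.01 and 12.3 RPKM at E15 (1.27 ± 0.28, adjusted p = 0.0202). Vim, the intermediate filament vimentin, fell to 688 and 579 RPKM at E18, against 956 and 1143 RPKM at E15, and Cdh2 (N-cadherin) to 60.9 and 53.1 RPKM at E18, against 73.1 and 84.6 RPKM at E15. The water channel Mip, which had 1483 and 1441 RPKM at E18, against 1469 and 2823 RPKM at E15, was not called, nor was the beaded filament gene Bfsp1 with 653 and 530 RPKM at E18, against 325 and 774 RPKM at E15. The median of the 17 was -0.51 without E15 pool A and 0.32 without E15 pool B, against 0.18 and -0.07 over all genes. Capn3 (chr2:120463593-120504919), a calcium-dependent protease with a lens-specific isoform in rodents, was among the greatest falls. It had 647 and 551 RPKM at E18, against 1495 and 2890 RPKM at E15 (-1.80 ± 0.23, adjusted p = 0.00194, a robust call).

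Genes of the lens epithelium moved both ways: 2 of 11 rose and 4 fell, with a median of -0.52. Foxe3 (chr4:114924443-114926067), the forkhead factor that keeps the epithelium proliferating, had 18.5 and 16.7 RPKM at E18, against 47.4 and 91.0 RPKM at E15 (-1.84 ± 0.27, adjusted p = 0.00358). Pitx3, a homeodomain factor needed for lens growth, had 11.8 and 9.21 RPKM at E18, against 24.9 and 50.1 RPKM at E15 (-1.67 ± 0.25, adjusted p = 0.00425). Both are robust calls and both were higher in E15 pool B, the pool poorer in retinal transcripts. Cdh1 (E-cadherin) had 11.1 and 7.59 RPKM at E18, against 13.6 and 24.0 RPKM at E15. The growth factor receptor Pdgfra had 10.6 and 9.69 RPKM at E18, against 14.8 and 23.9 RPKM at E15. The laminin receptor subunit Itga6 was also called lower (-0.59). Gja1 (connexin 43), the gap junction protein of the epithelium that many other cells share, had 185 and 214 RPKM at E18, against 69.2 and 38.6 RPKM at E15 (1.92 ± 0.25, adjusted p = 0.00178, a robust call). Wls, which carries Wnt proteins to the cell surface, rose by less (0.55). Of 20 lens transcription factors, 1 rose and 2 fell (Foxe3 and Pitx3), where 5.48% of all genes were called higher and 3.67% lower. Tfap2b had 8.92 and 9.49 RPKM at E18, against 2.24 and 1.63 RPKM at E15 (1.80 ± 0.33, adjusted p = 0.0100). Pax6, which both lens and retina use, had 252 and 264 RPKM at E18, against 223 and 128 RPKM at E15, and Prox1, a factor of fiber elongation, had 33.5 and 28.8 RPKM at E18, against 32.9 and 61.6 RPKM at E15; neither was called. None of 6 lens RNA granule genes was called by limma (2 at an unadjusted p below 0.05) or with stage weights. The most abundant, Tdrd7, had 322 and 327 RPKM at E18, against 284 and 506 RPKM at E15.

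**Figure D3:**
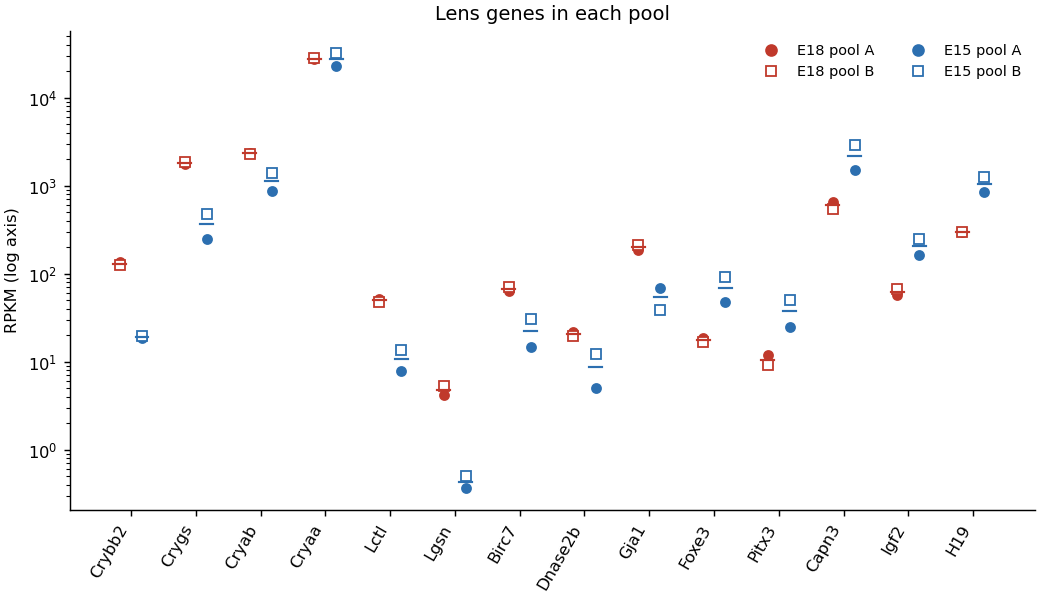
RPKM (log axis) of 14 lens genes in each pool, E18 in red and E15 in blue, with a line at the mean of the 2 pools. Crybb2, Crygs, Lctl, Lgsn and Birc7 are higher in both E18 pools, Foxe3, Pitx3, Capn3, Igf2 and H19 lower, and Cryaa lies between the E15 pools.

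In the capsule and basement membrane list, 4 of 18 members rose and none fell. The collagen IV chains of mature basement membranes were low at both stages: Col4a4 had 1.05 and 0.901 RPKM at E18, against 0.143 and 0.058 RPKM at E15, and Col4a3 had 0.885 and 0.817 RPKM at E18, against 0.223 and 0.313 RPKM at E15. Lama5, a laminin chain, had 14.9 and 17.9 RPKM at E18, against 8.48 and 8.81 RPKM at E15 (0.85 ± 0.13), and Agrn (agrin) had 10.7 and 15.5 RPKM at E18, against 7.41 and 3.65 RPKM at E15 (1.15 ± 0.32). No capsule gene is a robust call. Of 12 genes of ion and water transport, 5 rose and none fell. Aqp1, the water channel of the lens epithelium and of the ciliary epithelium, had 13.4 and 16.6 RPKM at E18, against 3.34 and 2.04 RPKM at E15 (2.13 ± 0.19, adjusted p = 2.18e-04). It is a robust call. Atp1b2 and Atp1b1, sodium pump beta subunits that neurons also use, were called in the main test but not with stage weights. Atp1b2 had 17.5 and 22.2 RPKM at E18, against 8.14 and 2.84 RPKM at E15, and Atp1b1 had 6.87 and 6.53 RPKM at E18, against 3.36 and 1.57 RPKM at E15. Both were higher in the retina-rich E15 pool A than in E15 pool B.

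Several of the greatest rises among genes reaching a mean of 10 RPKM were in genes of secreted proteins. Ptgds (chr2:25466709-25470110), a lipocalin that makes prostaglandin D2 and is abundant in ocular fluids, had 69.6 and 86.3 RPKM at E18, against 1.15 and 0.566 RPKM at E15 (5.42 ± 0.19, adjusted p = 1.73e-07). Htra1 (chr7:130936203-130985658), a secreted serine protease, had 71.9 and 88.5 RPKM at E18, against 5.90 and 2.76 RPKM at E15 (3.99 ± 0.23, adjusted p = 1.26e-05). Optc (opticin), a small proteoglycan of the vitreous secreted by the non-pigmented ciliary epithelium, had 73.1 and 92.6 RPKM at E18, against 11.9 and 3.50 RPKM at E15 (3.45 ± 0.41). Both E18 pools exceeded both E15 pools several-fold in each. Col9a3, a chain of the cartilage and vitreous collagen IX, had 28.7 and 31.8 RPKM at E18, against 1.78 and 0.347 RPKM at E15 (4.01 ± 0.34). Tac1, the precursor of substance P, had 35.1 and 38.9 RPKM at E18, against 1.90 and 0.796 RPKM at E15 (4.05 ± 0.33). Pla2g5, a secreted phospholipase A2, had 13.1 and 17.7 RPKM at E18, against 1.56 and 0.336 RPKM at E15 (3.13 ± 0.29). The sulfate transporter Slc13a4 had 16.5 and 20.7 RPKM at E18, against 2.46 and 0.459 RPKM at E15 (3.12 ± 0.36). Fam129a had 19.6 and 22.9 RPKM at E18, against 2.43 and 1.77 RPKM at E15 (2.85 ± 0.17), and Megf11, a transmembrane protein that spaces retinal interneurons, had 11.4 and 12.9 RPKM at E18, against 2.00 and 0.234 RPKM at E15 (2.77 ± 0.37). All of these are robust calls. In each, E15 pool A was above E15 pool B, as for the retinal markers. Both E18 pools exceeded E15 pool A, but the rule for the greatest rises required this. The summed photoreceptor level had the same order, with 109 and 111 RPKM at E18, against 54.6 and 20.1 RPKM at E15. The summed levels of the retinal progenitor list and of the ganglion and inner neuron list lay between the E15 pools at E18. What part neighbouring tissue has in these rises was not tested.

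Pigment cell genes rose as a group. All 8 tested members were called higher (2 others did not reach the level for testing), with a median log2 fold change of 1.55, and 5 are robust calls. Tyrp1, a melanin-synthesis enzyme of the tyrosinase family, had 21.6 and 24.5 RPKM at E18, against 3.02 and 1.66 RPKM at E15 (2.88 ± 0.18, adjusted p = 1.87e-05). Dct, which acts in the same pathway, had 30.1 and 31.2 RPKM at E18, against 6.93 and 3.52 RPKM at E15 (2.40 ± 0.24). Tyr (tyrosinase), the enzyme of the first steps, had 5.48 and 5.78 RPKM at E18, against 1.06 and 0.702 RPKM at E15 (1.82 ± 0.17). These are the genes whose promoters with CATGTG are shown above. Pmel, the melanosome matrix protein, had 58.6 and 70.4 RPKM at E18, against 22.3 and 13.1 RPKM at E15 (1.85 ± 0.23). Trpm1, Oca2 and Mlana rose by 1.18, 1.27 and 1.00, and Mitf, the factor that drives the pathway, rose least of the 8, with 6.28 and 7.74 RPKM at E18, against 3.23 and 3.77 RPKM at E15 (0.83 ± 0.15). The summed level of the list was 154 and 175 RPKM at E18, against 51.1 and 35.0 RPKM at E15. Between 6 and 8 members were called higher under each alternative but 3: with stage weights and without E18 pool B 5 were called, and in a fit to the 4 libraries alone none was.

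Erythroid genes fell. Of 8 tested members, 7 were called lower and none higher, with a median of -2.01, and both E18 pools lay below both E15 pools for all 8. Hbb-y, the embryonic beta-type globin made in primitive red cells, had 0.703 and 0.257 RPKM at E18, against 294 and 285 RPKM at E15 (-7.63 ± 0.19, adjusted p = 1.79e-08). Hba-x, the embryonic alpha-type zeta globin, had 0.207 and 0.265 RPKM at E18, against 40.6 and 30.1 RPKM at E15 (-4.86 ± 0.17, adjusted p = 1.73e-07). The E18 values of both are near the depth limit. Together with Crybb2 and Ptgds they were the 4 genes that a fit to the 4 libraries alone still called. The early embryonic globin Hbb-bh1 had 0.051 and 0.037 RPKM at E18, against 3.72 and 2.99 RPKM at E15 (-2.05 ± 0.15). Slc4a1 (band 3), a membrane protein of red cells, had 0.232 and 0.240 RPKM at E18, against 5.22 and 3.73 RPKM at E15 (-2.13). The adult globins fell much less. Hbb-b1 had 684 and 664 RPKM at E18, against 1401 and 1442 RPKM at E15 (-1.08 ± 0.29, adjusted p = 0.0484). Hba-a2 had 1139 and 1382 RPKM at E18, against 3080 and 2540 RPKM at E15, and was not called (adjusted p = 0.0677). Alas2, the heme enzyme of red cells, had 9.62 and 8.39 RPKM at E18, against 24.7 and 23.6 RPKM at E15 (-1.33 ± 0.19). Globin genes share reads among copies, so single adult members are uncertain.

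The calcium-binding protein gene S100a9 was among the greatest falls. It had 4.40 and 8.49 RPKM at E18, against 33.1 and 70.0 RPKM at E15 (-2.78 ± 0.33, adjusted p = 0.00113), and S100a8, which encodes its partner in calprotectin, had 2.94 and 9.87 RPKM at E18, against 34.6 and 58.8 RPKM at E15 (-2.82 ± 0.47). The cysteine protease inhibitor Stfa1 had 1.64 and 3.59 RPKM at E18, against 11.6 and 27.8 RPKM at E15 (-2.45 ± 0.35). S100a9 and Stfa1 are robust calls, while S100a8 was not called with stage weights (limma adjusted p = 0.154). Of 12 macrophage genes, 5 were called higher and none lower, with a median of 0.88. The receptor Csf1r had 14.3 and 18.96 RPKM at E18, against 7.89 and 3.53 RPKM at E15 (1.46 ± 0.39), and Mrc1 had 11.4 and 11.96 RPKM at E18, against 6.15 and 2.48 RPKM at E15 (1.35 ± 0.34). C1qa, Cx3cr1 and Cd68 were the other 3. Lyz2, the lysozyme that neutrophils share, had 7.36 and 10.2 RPKM at E18, against 16.9 and 19.5 RPKM at E15 and was not called. No macrophage gene was called with stage weights. The list median was 1.29 without E15 pool A and 0.54 without E15 pool B, against 0.18 and -0.07 over all genes.

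Some markers of vessels were higher at E18. Of 12 endothelial genes 4 rose and none fell (median 0.50), and of 8 pericyte and smooth muscle genes 4 rose and none fell (median 0.73). Cldn5, the tight junction claudin of endothelium, had 25.6 and 33.4 RPKM at E18, against 11.4 and 9.16 RPKM at E15 (1.43 ± 0.20, adjusted p = 0.00305). Kdr (VEGF receptor 2) rose by 1.14, Eng by 0.94 and Egfl7 by 0.55, while the pan-endothelial Pecam1 had 12.7 and 17.8 RPKM at E18, against 14.4 and 8.56 RPKM at E15 and was not called. Rgs5, a pericyte marker, had 55.6 and 66.2 RPKM at E18, against 18.1 and 14.9 RPKM at E15 (1.82 ± 0.15, adjusted p = 1.01e-04), and is the robust call of these 2 lists. Acta2 (smooth muscle actin) had 15.4 and 19.9 RPKM at E18, against 5.96 and 5.59 RPKM at E15 (1.45 ± 0.23). Tagln and Kcnj8 rose by 1.10 and 0.83.

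Of 4 tested genes of surface epithelium and cornea, 3 fell and 1 rose. Krt5, a keratin of basal epithelial cells, had 0.185 and 0.478 RPKM at E18, against 7.65 and 6.98 RPKM at E15 (-2.65 ± 0.17, adjusted p = 2.28e-05). Krt15 had 0.868 and 1.69 RPKM at E18, against 8.71 and 8.00 RPKM at E15 (-2.06 ± 0.21), and Krt14, the partner of Krt5, had 0.166 and 0.142 RPKM at E18, against 1.68 and 1.33 RPKM at E15 (-1.11 ± 0.15). All 3 are robust calls. Krt12, the keratin of corneal epithelium, was called higher at 1.32 and 1.47 RPKM at E18, against 0.705 and 0.156 RPKM at E15. Of 9 mesenchyme genes 3 fell and none rose, with a median of -1.07. Lum (lumican) had 0.405 and 0.384 RPKM at E18, against 3.09 and 3.77 RPKM at E15 (-1.66 ± 0.31), and Col1a2 had 2.01 and 3.72 RPKM at E18, against 9.51 and 7.35 RPKM at E15 (-1.31 ± 0.33). Of 6 muscle genes, Actc1 was called lower, with 0.246 and 1.78 RPKM at E18, against 3.40 and 6.71 RPKM at E15. Markers of tissues around the lens thus differed between the stages in both directions, and their part in the other results was not tested.

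**Figure D4:**
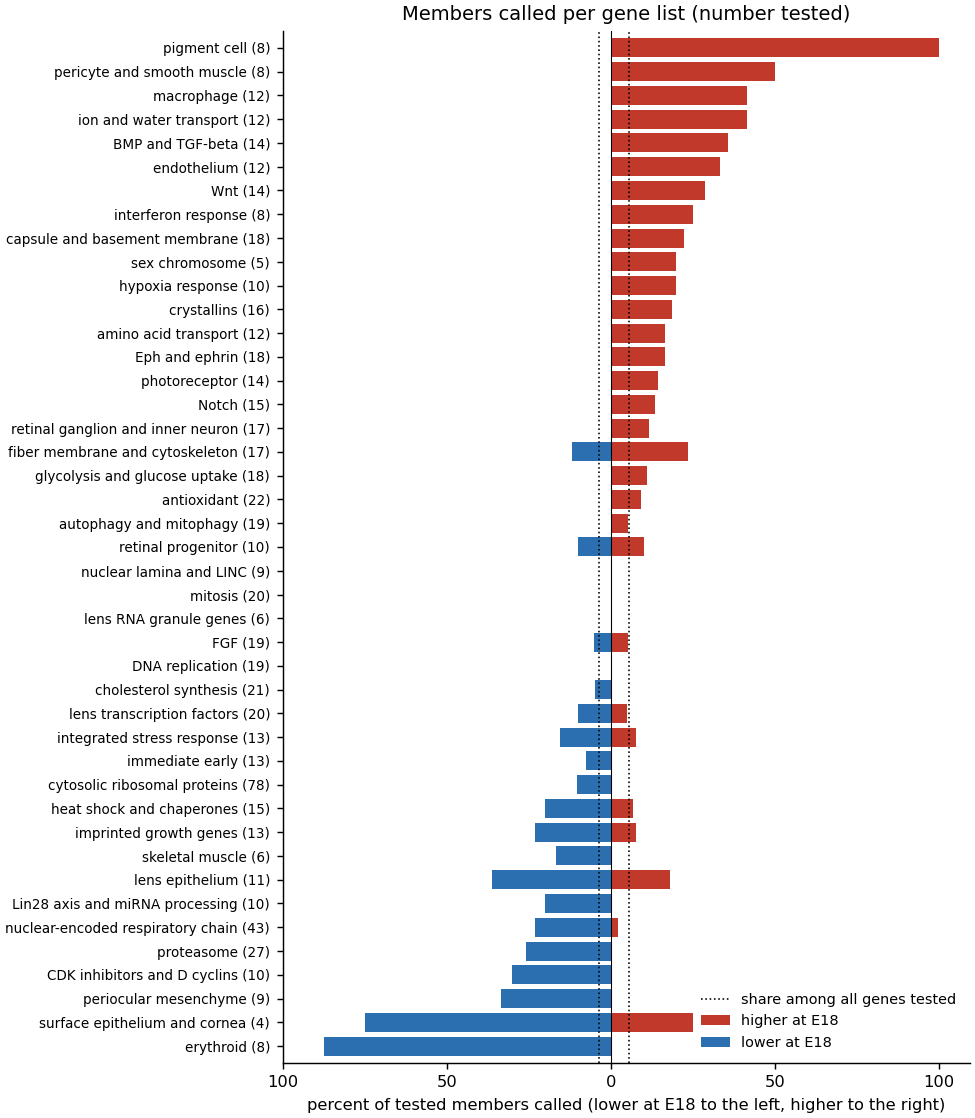
Percent of tested members called higher (right, red) or lower (left, blue) at E18 for 43 gene lists, with the number tested in brackets; dotted lines mark the shares among all genes tested, 5.48% higher and 3.67% lower. Pigment cell genes (8 of 8 higher) and erythroid genes (7 of 8 lower) stand at the ends.

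Most retinal genes were not called, as in all genes, where 5.48% were called higher and 3.67% lower with a median of 0.05. Of 10 retinal progenitor genes 1 rose and 1 fell, with a median of 0.71, and all 10 were higher in E15 pool A than in pool B. Sfrp2, a secreted Wnt inhibitor, had 43.6 and 37.2 RPKM at E18, against 241 and 74.7 RPKM at E15 (-1.71 ± 0.40, adjusted p = 0.0259). Of 17 genes of ganglion cells and inner neurons 2 rose and none fell, with a median of 0.54. Pou4f1 had 6.01 and 5.59 RPKM at E18, against 2.63 and 0.939 RPKM at E15 (1.36 ± 0.26), and Ptf1a, a factor of horizontal and amacrine cells, rose by 1.09. Atoh7, which starts ganglion cell birth, had 41.1 and 44.1 RPKM at E18, against 93.7 and 26.5 RPKM at E15. Its target Pou4f2 had 5.68 and 5.25 RPKM at E18, against 13.4 and 3.21 RPKM at E15; neither was called. Of 14 photoreceptor genes 2 rose and none fell, with a median of 0.56, and none was called with stage weights or without E15 pool B. Both E18 pools were above both E15 pools for 11 of the 14, where 25.6% of all genes did so; the difference between the retinal lists was not tested. Crx, the homeobox factor of photoreceptors, had 14.6 and 14.8 RPKM at E18, against 6.56 and 1.90 RPKM at E15 (1.75 ± 0.45, adjusted p = 0.0400), and Prdm1 had 10.3 and 10.6 RPKM at E18, against 4.87 and 2.21 RPKM at E15 (1.40 ± 0.34). Otx2 (42.2 and 43.3 RPKM at E18, against 21.0 and 6.91 RPKM at E15) and Neurod1 (28.4 and 27.2 RPKM at E18, against 13.7 and 4.15 RPKM at E15) were not called. The cone transducin subunit genes Gngt2 and Gnb3 were among the greatest rises, but neither was called with stage weights (limma adjusted p = 0.0995 and 0.069). Gngt2 had 35.7 and 37.4 RPKM at E18, against 7.34 and 2.09 RPKM at E15 (2.89 ± 0.51), and Gnb3 had 16.9 and 17.2 RPKM at E18, against 2.42 and 1.10 RPKM at E15 (2.75 ± 0.39). Rax at E18 thus lay below E15 pool A, while these photoreceptor genes lay above it. For Gngt2 and Gnb3 the rule for the greatest rises required this order.

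Genes of DNA replication and mitosis gave no calls in the main test. None of 19 DNA replication genes or 20 mitosis genes was called by limma (0 of both lists at an unadjusted p below 0.05) or with stage weights, with medians of -0.20 each. All 39 were higher in E15 pool A than in E15 pool B, and the E18 pools lay between the E15 pools for 17 replication and 14 mitosis genes, against 27.5% of all genes. Mcm6, a subunit of the replicative helicase, had 58.3 and 56.7 RPKM at E18, against 78.2 and 38.3 RPKM at E15, and Mki67, the proliferation antigen, had 32.6 and 31.4 RPKM at E18, against 40.8 and 20.6 RPKM at E15. The direction turned with the E15 pool used. The replication median was 0.24 without E15 pool A and -0.65 without E15 pool B, against 0.18 and -0.07 over all genes. Of 10 CDK inhibitors and D cyclins 3 fell and none rose. Cdkn2a, the Ink4a/Arf locus, had 0.368 and 0.294 RPKM at E18, against 2.23 and 2.32 RPKM at E15 (-1.30 ± 0.17, a robust call). Ccnd2 had 37.5 and 37.7 RPKM at E18, against 58.6 and 67.9 RPKM at E15, and Ccnd3 had 43.8 and 47.5 RPKM at E18, against 70.8 and 75.9 RPKM at E15. Both D cyclins were lower in each E18 pool than in either E15 pool, with log2 fold changes of -0.73 ± 0.14 and -0.67 ± 0.09. Neither was called with stage weights (limma adjusted p = 0.154 and 0.0531).

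Among signalling genes, calls were nearly all rises. In the BMP and TGF-beta list 5 of 14 rose and none fell. Bmp4, a ligand of the optic cup rim and lens, had 17.1 and 20.3 RPKM at E18, against 2.81 and 1.33 RPKM at E15 (2.72 ± 0.21, adjusted p = 9.91e-05), and Bmp7 had 18.3 and 23.1 RPKM at E18, against 9.99 and 8.89 RPKM at E15 (1.05 ± 0.13). Both ligands are robust calls. Bmp2, Tgfb2 and the inhibitor Smad7 rose by 1.15, 0.62 and 0.75. In the Wnt list 4 of 14 rose and none fell. Wif1, a secreted Wnt inhibitor, had 6.89 and 7.60 RPKM at E18, against 0.874 and 0.333 RPKM at E15 (2.38 ± 0.21, a robust call). The Wnt target Lef1 had 10.8 and 12.1 RPKM at E18, against 5.31 and 2.08 RPKM at E15. Axin2, another target, had 6.03 and 7.90 RPKM at E18, against 3.84 and 3.06 RPKM at E15. The ligand Wnt5a rose by 0.76. Of 18 Eph and ephrin genes 3 rose (Ephb1, Efna3 and Ephb3) and none fell. Ephb1 had 10.5 and 11.2 RPKM at E18, against 3.76 and 0.852 RPKM at E15 (2.00 ± 0.34, a robust call). In the Notch list the ligand Dll3 and the target Heyl rose, by 1.35 and 1.11, of 15. In the FGF list 1 of 19 rose and 1 fell, near the shares over all genes (5.48% higher and 3.67% lower). Fgf12 rose by 0.76, and the feedback inhibitor Spry1 fell to 5.01 and 4.99 RPKM at E18, against 7.85 and 10.999 RPKM at E15. With stage weights, Bmp4, Bmp7, Wif1 and Ephb1 were the only genes of these 5 lists still called. The list medians depended on the E15 pool used. Without E15 pool A and without E15 pool B, in that order, they were 0.74 and 0.17 for BMP and TGF-beta. They were 0.40 and 0.04 (Wnt), 0.86 and 0.02 (Eph and ephrin), 0.88 and -0.006 (Notch) and 0.39 and -0.008 (FGF). Over all genes they were 0.18 and -0.07.

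Among imprinted growth genes, H19 and Igf2 changed most. H19 (chr7:142575530-142578146), the non-coding RNA next to Igf2, had 298 and 295 RPKM at E18, against 847 and 1256 RPKM at E15 (-1.79 ± 0.19, adjusted p = 7.43e-04). The transcript AK145379 followed it closely (345 and 342 RPKM at E18, against 980 and 1454 RPKM at E15), and reads shared between them could not be told apart. Igf2 (chr7:142650768-142666816), the fetal growth factor, had 57.5 and 67.2 RPKM at E18, against 165 and 248 RPKM at E15 (-1.68 ± 0.18, adjusted p = 6.24e-04). Both genes are robust calls. Mest fell by 0.65, and Meg3 was called higher at 20.4 and 21.4 RPKM at E18, against 8.20 and 13.0 RPKM at E15. In all, 3 of 13 imprinted genes fell and 1 rose. The fetal RNA-binding protein gene Lin28b, a repressor of let-7, had 2.79 and 2.51 RPKM at E18, against 6.22 and 8.20 RPKM at E15 (-1.16 ± 0.17, a robust call), and the let-7 target Hmga2 fell to 3.22 and 3.10 RPKM at E18, against 5.45 and 6.43 RPKM at E15; they were the 2 calls among 10 genes of that list. Matn2, a matrix adaptor protein, had 2.99 and 2.35 RPKM at E18, against 9.65 and 14.2 RPKM at E15 (-1.80 ± 0.20, a robust call).

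Calls among ribosomal, respiratory and proteasome genes were nearly all falls, and small. Of 78 ribosomal protein genes 8 fell and none rose (median -0.24), of 43 respiratory chain genes 10 fell and 1 rose (median -0.17), and of 27 proteasome genes 7 fell and none rose (median -0.26). Both E18 pools lay below both E15 pools for 45, 21 and 22 of them, where 21.9% of all genes did so. Rpl8 had 705 and 734 RPKM at E18, against 1053 and 1055 RPKM at E15 (-0.55 ± 0.10). Rpsa and Rpl10a fell by 0.64 and 0.59 on the log2 scale. Uqcrc1, a subunit of respiratory complex III, had 84.4 and 78.1 RPKM at E18, against 125 and 120 RPKM at E15 (-0.59 ± 0.10). Cox6a1 and Uqcrfs1 fell too, while Uqcrb was higher with 22.1 and 22.7 RPKM at E18, against 12.9 and 15.7 RPKM at E15. Of the proteasome subunits Psmd4 had 136 and 136 RPKM at E18, against 181 and 216 RPKM at E15 (-0.54 ± 0.10), and Psmd2, Psmd3 and Psmd14 fell by 0.49, 0.51 and 0.45. None of these was called with stage weights, and after rescaling without the crystallins 5, 3 and 4 members of the 3 lists were called lower.

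Stress and metabolic genes moved singly, where 5.48% of all genes were called higher and 3.67% lower. Nupr1 (chr7:126623246-126625470), a stress-induced nuclear protein, had 641 and 685 RPKM at E18, against 126 and 250 RPKM at E15 (1.89 ± 0.23, adjusted p = 0.00152). Hmox1 (heme oxygenase 1) had 83.3 and 85.7 RPKM at E18, against 20.02 and 28.2 RPKM at E15 (1.79 ± 0.14, adjusted p = 9.91e-05). Aldoc, a glycolytic aldolase, had 44.8 and 43.5 RPKM at E18, against 13.2 and 24.5 RPKM at E15 (1.25 ± 0.20). The lipoxygenase gene Alox15, known from organelle breakdown in red cells, had 2.50 and 2.36 RPKM at E18, against 0.350 and 0.206 RPKM at E15 (1.43 ± 0.15). The glycine transporter Slc6a9 had 16.8 and 22.8 RPKM at E18, against 6.20 and 3.10 RPKM at E15 (1.92 ± 0.25), and Ifit3, an interferon-induced gene, had 2.96 and 3.33 RPKM at E18, against 0.423 and 0.249 RPKM at E15 (1.63 ± 0.19). All 6 are robust calls, each the 1 robust call of its list. Other members called higher were Gstm1 (0.91) among 22 antioxidant genes, Eno2 (0.96) among 18 glycolytic genes, Slc6a6 (0.99) among 12 amino acid transporters, Bst2 (0.89) among 8 interferon genes, and Egln3 and Ndrg1 (1.41 and 0.59) among 10 hypoxia genes. The serine and folate pathway genes Phgdh and Mthfd2 fell by 0.85 and 0.55. Of 15 chaperones Hspb1 rose (4.86 and 3.33 RPKM at E18, against 1.15 and 0.780 RPKM at E15), while Hspd1, Hspa4 and Hsp90ab1 fell by 0.58, 0.52 and 0.50. Insig1 (-0.63) was the 1 call among 21 cholesterol genes, and Dusp1 (-0.47) among 13 immediate early genes. None of 9 nuclear lamina genes was called by limma (1 at an unadjusted p below 0.05) or with stage weights; Lmnb1 had 94.0 and 93.0 RPKM at E18, against 134 and 59.6 RPKM at E15.

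The postnatal libraries entered the filter and the estimate of spread, and their levels are given as a description. Crybb2 averaged 2467 RPKM at P0 (the day of birth) and 21179 RPKM at P9, and Crygs 5526 and 16869 RPKM. Lctl, Birc7 and Hmox1 likewise averaged 611, 391 and 569 RPKM at P9. Foxe3 and Pitx3 did not stay low: they averaged 31.9 and 39.2 RPKM at P0, above both E18 pools. Igf2 averaged 34.8 RPKM at P0 and 5.55 RPKM at P9, and H19 196 and 6.37 RPKM. Tyrp1 averaged 20.2 RPKM at P0 and 6.12 RPKM at P9, Tac1 25.7 and 2.73 RPKM, and Ptgds 106 and 51.4 RPKM. Hbb-y stayed below 0.3 RPKM on average at each postnatal stage, and Hba-x was listed at 0 in all of them. The retinal progenitor sum was 109 and 104 RPKM in the P0 pools, below all 4 embryonic pools. The pigment cell sum was 127 and 158 RPKM at P0, about as high as at E18.

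**Figure D5:**
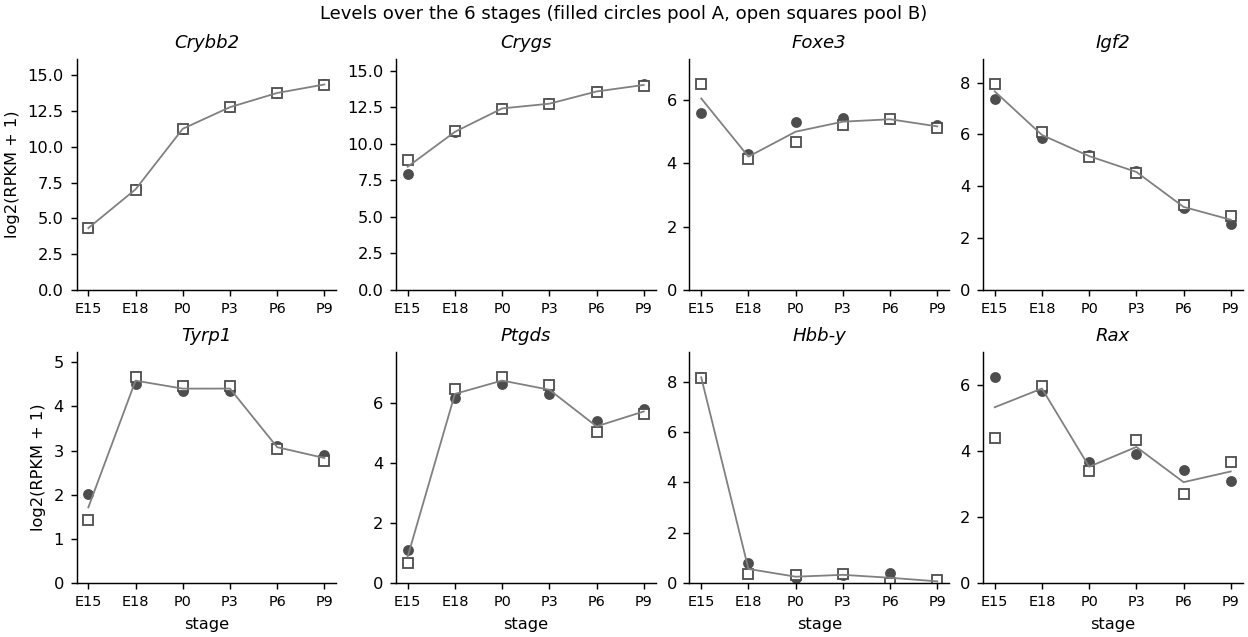
Level, log2(RPKM + 1), of 8 genes in pools A (filled circles) and B (open squares) at each of the 6 stages, with a line through the means. Crybb2 and Crygs climb at every step, Igf2 declines at every step, Hbb-y is high at E15 alone, Tyrp1 is highest from E18 to P3, Ptgds stays high from E18 on, and Foxe3 and Rax show the gap between the E15 pools.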

How the data were processed

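The mRNA libraries of 6 stages, 2 pools each, were read from the tables the authors deposited, 1 per library, with gene symbols and values. The deposited values carry no stated unit and were taken as RPKM from the file contents. The step between low values scales with transcript length. Within 0.1 read, between 71.5% and 76.8% of low values of the 4 libraries were whole. A step fixed in advance would give 20% by chance. The step was chosen to make this share as large as possible, so 20% is not its chance level. The processing notes of the submitters name SAMtools 0.1.18, Bowtie 0.12.8 and the build GRCm38/mm10. The sources used here do not say how strand and shared reads were counted. Per the labels' protocols, RNA was extracted with Trizol and libraries were made with the TruSeq RNA v2 kit.

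Genes at 1 RPKM or more in at least 2 of the 12 libraries (14405 of 30705) were tested as log2(RPKM + 1), so folds of low genes are understated. A limma 3.58.1 model (R 4.3.3) with stage as a factor of 6 levels, an intensity trend and 6 residual degrees of freedom gave the E18 minus E15 contrast with Benjamini-Hochberg adjustment. Errors of fold changes are standard errors; medians of lists are of log2 fold changes. Tables and plots were made in Python 3.11.15 with matplotlib 3.10.9, scipy 1.17.1, pandas 2.3.3 and numpy 2.4.6. On simulated data with equal spread at all stages, the fit among 14405 genes recovered 87.0% of 108 that were shifted by 1 (log2) and 96.7% of 92 shifted by 2, and 4.69% of its calls were false; the E15 pools do not meet that assumption.

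The 43 gene lists and the comparison were chosen with earlier results of these data known. Named are up to 4 called members of each list with the greatest change, or the most abundant member where none was called. Also named are the 12 greatest rises and falls among called genes with a mean of at least 10 RPKM at either stage, pools that do not overlap and the same call without either E15 pool. The 8 each way that also held under rescaling and the Rax covariate complete the rule, beside defining markers given as values. A few genes that meet the rule are not reported here. Alternatives were other scalings, pseudocounts of 0.1 and 5, no filter, the 4 libraries alone, stage weights, a pool-letter block, retinal covariates and leaving out each pool. The pools are separate groups of animals. The p-values of the main test use a spread between pools that is shared by all stages, postnatal ones included. This shared spread understates that of the E15 pools. The fit to the 4 libraries alone takes its spread from the E18 and E15 pools only. Gene positions and promoters are from RefSeq on GRCm38.p6. The small-RNA tables were not used here.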

Additional observations from a re-analysis of the deposited data

How the results depend on the processing

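The counts of 789 higher and 529 lower genes changed most with the libraries in the fit and the weights of the stages: the 4 libraries alone, with 2 residual degrees of freedom, gave 2 and 2 calls (1945 genes at an unadjusted p below 0.05), and stage weights gave 122 and 38. Leaving out 1 pool gave between 121 and 3734 higher and between 56 and 1396 lower genes: 3734 and 1396 without E15 pool A, 572 and 612 without E15 pool B, 210 and 98 without E18 pool A, and 121 and 56 without E18 pool B, where the lone pool is assumed to vary like the other stages. Rescaling without crystallins gave 231 lower genes, and the covariates gave 896 (Rax) and 917 (retinal mean) lower genes; the cause was not tested. Median-ratio rescaling (716 and 452), quantile normalization (668 and 437), pseudocounts of 0.1 (666 and 447) and 5 (906 and 602) and no filter (860 and 594) stayed within 1.5 times. The pool letters do not pair the pools: the A minus B differences at E18 and E15 had a correlation of -0.0885 across genes, and a fit with the replicate letter as a block gave 629 higher and 419 lower genes. The difference in the crystallin share of summed RPKM, 1.13 points, was 0.513 without the 6 gamma crystallins, 0.0136 weighted by transcript length, and between -4.40 and 6.66 with 1 pool left out. No called gene that the naming rule picks changed sign under any alternative, and of 142 such genes 53 kept their call with stage weights. For the greatest rises and falls the rule itself required the same call without either E15 pool, and for some also under rescaling and the Rax covariate. Their agreement in those fits was thus set by the rule. Some uncalled genes did change sign, and the cause was not tested. Without E15 pool A and without E15 pool B, in that order, log2 fold changes were 0.66 and -1.12 (Atoh7), -0.39 and 0.86 (Bfsp1), -0.21 and 0.30 (Cryaa), -0.31 and 0.38 (Cryba1), 0.64 and -0.51 (Lmnb1), 0.57 and -0.44 (Mcm6), 0.61 and -0.34 (Mki67), 0.62 and -1.16 (Pou4f2), 1.4955 and -0.36 (Rax), -0.64 and 0.19 (Tdrd7), and 0.42 and -0.55 (Top2a). Median-ratio rescaling gave -0.037 (Cryaa), -0.046 (Cryba1), -0.012 (Lmnb1) and -0.0084 (Mcm6), and Top2a was 0.062 after quantile normalization and 0.042 rescaled without crystallins. With the Rax and the retinal mean covariate, Lmnb1 was -0.27 and -0.35, Mcm6 -0.20 and -0.28, and Mki67 -0.10 and -0.18; with the retinal mean, Rax was -0.12 and Tdrd7 0.035.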

Other observations

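Transcripts of the sex chromosomes differed between the stages. Xist, the RNA made by the inactive X chromosome of female cells, had 82.2 and 51.2 RPKM at E18, against 12.02 and 19.2 RPKM at E15 (log2 fold change 2.02 ± 0.49 (SE), limma adjusted p = 0.0305), and it was not called with stage weights or after median-ratio rescaling. The 4 Y-linked genes of the list (Ddx3y, Kdm5d, Uty and Eif2s3y) were lower in both E18 pools than in both E15 pools, without being called. Stage and the share of male animals in the pools cannot be told apart here. Both E18 pools also lay below both E15 pools for the mesenchyme gene Col1a1, with 0.927 and 2.48 RPKM at E18, against 6.90 and 5.36 RPKM at E15, which was not called.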
